A study of Mus musculus with 18 samples.

Results

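The 10 genes described here encode cytosolic thioredoxin (Txn1), the 6 peroxiredoxins (Prdx1 to Prdx6), cytosolic and mitochondrial superoxide dismutase (Sod1 and Sod2) and catalase (Cat). They were chosen by symbol, and each had a row among the 21859 rows of the count table. All 10 were among the 15944 genes tested. The study measured polyA RNA of mouse retinal pigment epithelium (RPE), a pigmented sheet of cells that supports the photoreceptors, in 18 libraries. Young (n = 7) and Old (n = 4) were RPE of young and of aged mice with no vector in their labels. Old-Control (n = 3) was RPE of aged mice given AAV2-tTA, an adeno-associated virus vector for the tetracycline transactivator tTA. Old-OSK (n = 4) was RPE of aged mice given AAV2-tTA;TRE-OSK, in which the promoter that tTA acts on drives Oct4 (encoded by Pou5f1), Sox2 and Klf4, transcription factors of pluripotent cells. Old-Control and Old-OSK thus share age and the tTA vector. Ages, strain, vector dose, time after injection, the promoter that drives tTA and the number of animals behind a library are not given in the sources used here.

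Superoxide arises as a by-product of respiration and is the product of NADPH oxidases. Superoxide dismutases turn it into hydrogen peroxide, Sod1 with copper and zinc mostly in the cytosol and Sod2 with manganese in mitochondria. Catalase, a heme enzyme of peroxisomes, splits hydrogen peroxide into water and oxygen, and peroxiredoxins reduce it through a cysteine that thioredoxin then reduces again. The RPE takes up shed photoreceptor outer segments, works in strong light and high oxygen, and is a tissue known for its catalase.

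Promoters of 3 members are shown because their RNA levels separated groups by library: Txn1 and Prdx1, whose Old-OSK libraries all lay above the Old-Control libraries, and Cat, whose Old-OSK libraries all lay below the Young ones. They are RefSeq sequences on GRCm38.p6 before the gene's RefSeq start, cut where the GENCODE M21 gene begins. The Txn1 stretch is chr4:57956412-57956661 (minus strand, 250 bases), the Prdx1 stretch chr4:116685349-116685543 (plus strand, 195 bases) and the Cat stretch chr2:103485161-103485403 (minus strand, 243 bases). Capitals mark GC boxes, whose letters are GGGCGG, on either strand. They likewise mark CCAAT boxes, named by their letters, and the core of the antioxidant response element (TGACNNNGC).
Txn1: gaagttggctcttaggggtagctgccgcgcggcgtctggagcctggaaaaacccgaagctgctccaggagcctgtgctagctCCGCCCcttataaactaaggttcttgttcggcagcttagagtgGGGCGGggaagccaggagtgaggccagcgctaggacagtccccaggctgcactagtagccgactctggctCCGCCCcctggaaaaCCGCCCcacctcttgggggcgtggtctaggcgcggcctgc
Prdx1: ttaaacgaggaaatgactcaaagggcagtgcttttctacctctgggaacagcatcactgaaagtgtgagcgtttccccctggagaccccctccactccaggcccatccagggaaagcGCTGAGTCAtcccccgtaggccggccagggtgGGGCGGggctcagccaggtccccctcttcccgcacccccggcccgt
Cat: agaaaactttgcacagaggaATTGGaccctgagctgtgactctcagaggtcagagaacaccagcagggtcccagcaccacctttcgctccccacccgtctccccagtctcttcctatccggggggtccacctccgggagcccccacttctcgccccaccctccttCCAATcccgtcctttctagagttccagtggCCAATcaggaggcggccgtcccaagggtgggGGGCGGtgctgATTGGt
The Txn1 window held 4 GC boxes and the Cat window 4 CCAAT boxes. In Prdx1 the antioxidant response element core and an AP-1 site (TGAGTCA) cover the same bases. Of the 9 members with a promoter in the table, 8 held a GC box, against 32.7% of 32851 promoters with 250 bases before the start. These 9 windows were richer in G and C (55.6 to 69.2%) than the median promoter (52.4%), which by itself makes GC boxes more frequent. The windows of Prdx4 and Sod2 lie wholly inside the GENCODE gene. A CCAAT box stood in 4 of 9 members against 33.8% of promoters, and the antioxidant response element core in 2 of 9 (Prdx1 and Sod1) against 10.2%. AP-1 sites stood in 1 of 9 against 4.46%, and the octamer read by POU factors such as Oct4 (ATGCAAAT) in 0 of 9 against 1.6%. These matches describe letters in the window, not binding.

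Library totals ran from 18104828 to 32348136 counts, and the lowest count of a member was 42 (Prdx4 in Young replicate 7). All values below are CPM, counts scaled to a common library size after TMM normalization, or log2 differences of edgeR's fit. RPE markers (10 of 10 measured, none at 0 in a whole group) summed to 40700 to 67400 CPM in Young, 27500 to 48400 in Old, 20700 to 64000 in Old-Control and 15500 to 30500 in Old-OSK. In bulk RNA, fewer cells of a type and less RNA per cell cannot be told apart. Old replicate 4 and Old-Control replicate 2 stood apart from their groups: their positions on the first principal component (73.2 and 61.8) lay within the Old-OSK range of 45.7 to 96, and they had the lowest RPE marker sums of their groups. Rod markers reached 17700 CPM in Old-Control replicate 2 and 14900 in Old-OSK replicate 4, with 143 to 2820 in Young. The names of 6 libraries carry a letter M: Young replicates 5, 6 and 7, replicates 2 and 3 of Old-Control, and replicate 4 of Old-OSK. Those 6 held 4040 to 5493 counts on 4 Y-linked genes, the other 12 held 0 to 93. Pou5f1 was at 50.1 to 97.4 CPM in Old-OSK and at most 3.75 in the other libraries. Sox2 was at 70 to 115 CPM in Old-OSK and at most 15.9 in the other libraries. Klf4, at 155 to 432 CPM in Old-OSK, overlapped Old (11.7 to 216 CPM).

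Txn1 reduces the catalytic disulfides of peroxiredoxins and many other proteins. The gene lies at chr4:57943373-57956411 on the minus strand (GRCm38). In Young it ranged from 35.1 CPM through a median of 44.2 to 56.9. The Old libraries were at 46.2, 60.8, 55.9 and 98.9 CPM, and the Old-Control libraries at 44.6, 68.5 and 51.5. Old-OSK libraries were at 162, 126, 116 and 74.3 CPM. Every Old-OSK library lay above every Young and every Old-Control library, while Old replicate 4 lay above the lowest Old-OSK library. Group means were 46.6 ± 7.96 CPM in Young (SD, n = 7), 65.4 ± 23.1 in Old (n = 4), 54.9 ± 12.3 in Old-Control (n = 3) and 119.8 ± 36.1 in Old-OSK (n = 4). In the order of the means, Young, Old-Control, Old and Old-OSK, the libraries of each group overlapped those of the next.

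**Figure D1:**
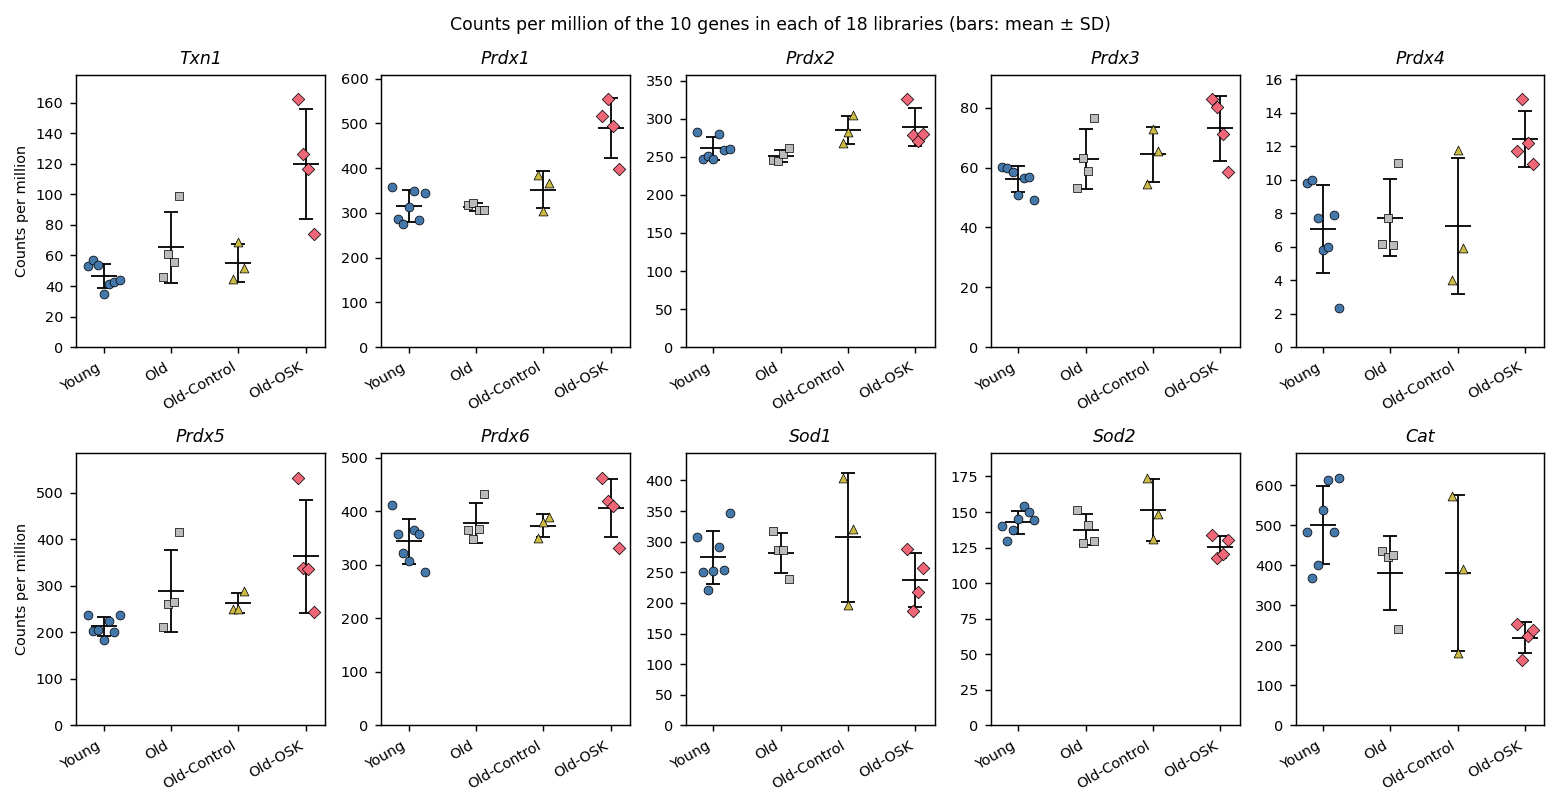
CPM of each of the 10 genes (y axis from 0) in the 4 groups (x axis); each point is a library and bars give the mean and SD. Txn1 and Prdx1 in Old-OSK lie above all Old-Control libraries, and Cat in Old-OSK (164 to 253 CPM) lies below all Young libraries (368 to 620 CPM).

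Txn1 rose in Old-OSK against Young by 1.36 log2 units (SE 0.21, edgeR adjusted p = 1.8e-04), and it passed in all 11 fits that left out 1 of those libraries. With the RPE marker score (mean log2 CPM of the RPE markers) as a covariate, a setting chosen after seeing the data, the difference was 0.84 (adjusted p = 0.0646). The summed RPE markers of Old-OSK all lay below those of Young. In this comparison, here and for the members below, such a covariate is thus hard to separate from the group. In Old-OSK against Old-Control the log2 difference was 1.12 (SE 0.27, 95% interval 0.55 to 1.69) and did not pass (adjusted p = 0.0594). It passed without Old-Control replicate 2 (1.28, adjusted p = 0.0122), without Old-OSK replicate 4 (1.26, adjusted p = 0.0149) and in DESeq2 (1.14, adjusted p = 0.0037). In the 6 same-numbered libraries it passed both with the replicate number as a block (1.30, adjusted p = 0.0495) and without the number (1.30, adjusted p = 0.0296). Without Old-Control replicate 1 the adjusted p was 0.322 at a log2 difference of 0.97. Nor did it pass without Old-Control replicate 3 (adjusted p = 0.143) or without Old-OSK replicate 1, 2 or 3 (adjusted p = 0.135, 0.147 and 0.133). With M as a covariate edgeR gave 0.99 (adjusted p = 0.148), and with the RPE marker score 0.79 (adjusted p = 0.306). With only the 2 groups fitted the adjusted p was 0.192. In Old against Young the difference was 0.49 (SE 0.21, adjusted p = 0.138), and 0.22 without Old replicate 4.

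Prdx1 and Prdx2 are the abundant cytosolic peroxiredoxins of the typical 2-cysteine kind. Prdx1 (chr4:116685544-116700822, plus strand) was at 275 to 358 CPM in Young, with a median of 314. Its Old libraries were at 319, 322, 307 and 306 CPM, its Old-Control libraries at 384, 305 and 367, and its Old-OSK libraries at 516, 554, 494 and 397. Each Old-OSK library exceeded each of the 14 other libraries, whereas the other 3 groups overlapped. Of all genes, 6.55% had all Old-OSK libraries above all Old-Control ones and 12.6% above all Young ones. The share above all other libraries was not counted. The rise in Old-OSK against Young was 0.64 (SE 0.10, edgeR adjusted p = 2.49e-04). It passed in all 10 other settings and all 11 fits without 1 library, and it was 0.81 (adjusted p = 0.00375) with the RPE marker score as a covariate. Against Old-Control the difference was 0.48 (SE 0.13, 95% interval 0.21 to 0.75, adjusted p = 0.0708). It passed in DESeq2 (0.48, adjusted p = 0.0147) and without Old-OSK replicate 4 (0.53, adjusted p = 0.0222). Among the settings where it did not pass, edgeR gave 0.52 (adjusted p = 0.253) without Old-Control replicate 1. Without Old-Control replicate 2 the difference was 0.35 (adjusted p = 0.0634), and with only the 2 groups fitted it was 0.48 (adjusted p = 0.209). Of the 50-base stretches of Prdx1 transcripts, 8.81% occur in other annotated genes, most often Gm21399 and Gm7204, so its reads may be divided among them.

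Prdx2 (chr8:84969587-84974834, plus strand) varied little, with a coefficient of variation of 3.11 to 8.58% within groups. Means were 261 ± 14.7 CPM in Young, 251 ± 7.82 in Old, 285 ± 18.9 in Old-Control and 289 ± 24.8 in Old-OSK. The 95% interval of its Old-OSK against Old-Control difference ran from -0.16 to 0.20, around 0.02 (adjusted p = 0.929). Old-OSK against Young gave 0.15 (adjusted p = 0.101). Its Old-Control libraries (268, 283 and 305 CPM) all lay above its Old libraries (246, 245, 253 and 262 CPM), a difference of 0.18 that did not pass (adjusted p = 0.9). On the opposite strand Junb and Rnaseh2a overlap 11.5% of its exonic length, and strand use in counting is not given. Of the 50-base stretches of Prdx2 transcripts, 12% occur in other annotated genes, among them Tdpx-ps1, Junb and Rnaseh2a.

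Prdx3 sits in mitochondria, and Prdx4 in the endoplasmic reticulum, where it takes part in disulfide formation. Prdx3 (chr19:60864051-60874556, minus strand) was at 56.1 ± 4.31 CPM in Young and 73.1 ± 10.9 in Old-OSK, where the libraries were at 82.8, 80.1, 71.1 and 58.6. The lowest Old-OSK library lay within the Young range of 49.3 to 60.3 CPM. The rise in Old-OSK against Young was 0.38 (SE 0.11, edgeR adjusted p = 0.0106), and the adjusted p was 0.051 without Old-OSK replicate 1. Against Old-Control, at 54.6, 73.0 and 65.6 CPM, the difference was 0.18 (adjusted p = 0.432). With the RPE marker score as a covariate the Old-OSK against Young difference was 0.09 (adjusted p = 0.714).

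Prdx4 (chrX:155323918-155340754, minus strand) had the lowest counts of the members. It was at 2.36 to 9.96 CPM in Young with a median of 7.70. Old libraries were at 6.18, 7.74, 6.08 and 11.0 CPM, Old-Control libraries at 3.99, 11.8 and 5.91, and Old-OSK libraries at 11.7, 14.8, 12.2 and 11.0. All Old-OSK libraries exceeded all Young ones, and Old-Control replicate 2 fell inside the Old-OSK range. The Old-OSK against Young difference of 0.81 (SE 0.32, edgeR adjusted p = 0.0478) passed, but in only 2 of 11 fits without 1 library and in 4 of 10 other settings. It was -0.20 (adjusted p = 0.75) with the RPE marker score as a covariate. Against Old-Control it was 0.78 (adjusted p = 0.235), with 1.29 (adjusted p = 0.0465) without Old-Control replicate 2 and 0.46 (adjusted p = 0.612) without Old-Control replicate 1. The RPE marker score as a covariate gave 0.21 (adjusted p = 0.792).

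Prdx5 is an atypical peroxiredoxin found in mitochondria, peroxisomes and cytosol. Prdx5 (chr19:6906697-6910106, minus strand) was at 183 to 237 CPM in Young. Old libraries were at 211, 261, 266 and 416 CPM, Old-Control libraries at 250, 251 and 288, and Old-OSK libraries at 533, 339, 337 and 244. Every Old-OSK library exceeded every Young one, by a small margin for replicate 4. The rise in Old-OSK against Young was 0.77 (SE 0.18, edgeR adjusted p = 0.00296) and passed in all 11 fits without 1 library, with 0.49 (adjusted p = 0.018) without Old-OSK replicate 1. With the RPE marker score as a covariate it was 0.73 (adjusted p = 0.108). Against Old-Control the difference was 0.47 (SE 0.23, edgeR adjusted p = 0.202) and did not pass. That difference was 0.18 (adjusted p = 0.609) without Old-OSK replicate 1 and 0.58 (adjusted p = 0.0799) without Old-OSK replicate 4. Old against Young gave 0.44 (SE 0.18, adjusted p = 0.12), and 0.21 (adjusted p = 0.555) without Old replicate 4. On the opposite strand Trmt112 overlaps 19.1% of the exonic length of Prdx5.

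Prdx6 has a single active cysteine, which glutathione rather than thioredoxin restores, and it also acts on phospholipids. Prdx6 (chr1:161240112-161251219, minus strand) averaged 344 ± 41.7 CPM in Young, 378 ± 37.6 in Old, 373 ± 20.8 in Old-Control and 406 ± 54.6 in Old-OSK. The Old-OSK libraries, at 463, 419, 410 and 332 CPM, overlapped all 3 other groups. The Old-OSK against Young difference was 0.24 (95% interval 0.01 to 0.46, edgeR adjusted p = 0.0786). Against Old-Control it was 0.12 (adjusted p = 0.623).

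Sod1 (chr16:90220754-90226329, plus strand) was at 221 to 348 CPM in Young with a median of 253. Old libraries were at 317, 286, 287 and 238 CPM, Old-Control libraries at 405, 196 and 320.1, and Old-OSK libraries at 288, 187, 218 and 258. All 4 groups overlapped, and Old-Control alone spanned nearly the range of the study. The Old-OSK against Old-Control difference was -0.37 (SE 0.21, edgeR adjusted p = 0.274), with -0.63 (adjusted p = 0.0365) without Old-Control replicate 2 and -0.14 (adjusted p = 0.779) without Old-Control replicate 1. Old-OSK against Young gave -0.21 (adjusted p = 0.342). With the RPE marker score as a covariate the sign of that difference turned, to 0.48 (adjusted p = 0.0286), between groups whose RPE marker sums did not overlap.

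Sod2 (chr17:13006846-13040063, plus strand) varied little. Means were 143 ± 8.03 CPM in Young, 138 ± 10.9 in Old, 151 ± 21.6 in Old-Control and 126 ± 7.78 in Old-OSK. Old-OSK libraries were at 134, 118, 120.3 and 131 CPM, and Old-Control libraries at 174, 131 and 149. The Old-OSK against Old-Control difference was -0.27 (95% interval -0.47 to -0.06, edgeR adjusted p = 0.112), with -0.39 (adjusted p = 0.0218) without Old-Control replicate 2 and -0.18 (adjusted p = 0.447) without Old-Control replicate 1. The RPE marker score as a covariate gave -0.10 (adjusted p = 0.586). Against Young it was -0.18 (adjusted p = 0.0699). Of its 50-base stretches 21% occur in other annotated genes.

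Cat (chr2:103453849-103485160, minus strand) was the member that fell. It ranged from 368 CPM through a median of 484 to 620 in Young. Old libraries were at 436, 422, 425 and 242 CPM, Old-Control libraries at 572, 181 and 390, and Old-OSK libraries at 253, 164, 223 and 240. Each Old-OSK library lay below each Young library, while Old replicate 4 and Old-Control replicate 2 lay within the Old-OSK range. In Old-OSK against Young Cat fell by 1.19 on the log2 scale (SE 0.26, edgeR adjusted p = 0.00186), to 0.438 of the Young level, and passed in all 11 fits without 1 library. Against Old-Control the difference was -0.80 (SE 0.30, 95% interval -1.43 to -0.16, adjusted p = 0.12). Without Old-Control replicate 2 Cat was lower by -1.15 (adjusted p = 0.00973), and without Old-Control replicate 1 the difference was -0.40, which did not pass. Old against Young gave -0.39 (SE 0.25, adjusted p = 0.311), and -0.23 without Old replicate 4.

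Levels can be set between genes only per length, here as mean CPM per kilobase of GENCODE M21 exon (the authors' annotation is not given in the sources used here). In Young the order was Cat at 192, Prdx1 at 104, Prdx5 at 99.4, Prdx2 at 85.6, Prdx6 at 71.6, Sod1 at 69.2, Txn1 at 44.3, Prdx3 at 37.9, Sod2 at 14.3 and Prdx4 at 3.35 CPM per kilobase. By this measure Cat stood first in Young, and its lowest Young library (140.9) exceeded the highest of Prdx1 (118). The length joins the exons of all annotated transcripts of a gene (2613 bases in Cat, 3043 in Prdx1, 3970 in Sod1 and 10008 in Sod2). The transcripts in use may be shorter, so the order holds for this length only. In Old-OSK the means were 169.8 for Prdx5, 161 for Prdx1, 114 for Txn1, 94.7 for Prdx2, 84.5 for Prdx6 and 84.0 for Cat, still per kilobase. Cat libraries then ran from 62.6 to 96.6 and overlapped those of Prdx6 (69.1 to 96.4) and Prdx2 (88.9 to 107).

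Over the whole family, Old against Young called 0 of 10 members with edgeR's quasi-likelihood test, where 5.4% of all genes tested were called higher and 4.16% lower. DESeq2 also called 0 members, where it called 1495 of all genes higher and 957 lower. At an unadjusted p under 0.05 there were 2 members (Txn1 and Prdx5), against 29% of all genes, so the family did not stand out from the background with age. The members' median log2 difference was 0.08, that of all genes -0.004.

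Old-OSK against Old-Control also called 0 members, against 0.408% of genes called higher and 0.32% lower (65 and 51 genes, or 64 and 29 with median-ratio size factors). An unadjusted p under 0.05 was reached by 4 members (Txn1, Prdx1, Sod2 and Cat), against 26.3% of genes. Txn1 and Prdx1 were the 2 members whose Old-OSK libraries all exceeded all Old-Control libraries, which 6.55% of genes did. The median was 0.15 for the members and -0.03 for all genes, and 7 of 10 members were positive. DESeq2 called 2 members higher (6.17% of genes), and the fit with the replicate block called 1 (2.48% of genes). Without Old-Control replicate 2, 2 members were higher (Txn1 and Prdx4; 6.39% of genes) and 3 lower (Sod1, Sod2 and Cat; 11.8% of genes). Without Old-OSK replicate 4, 2 were higher (Txn1 and Prdx1; 5.58% of genes). Among the libraries without an M in the name, which leave 1 Old-Control library that is assumed to vary like the other groups, 2 were higher (Txn1 and Prdx4; 3.83% of genes) and 2 lower (Sod2 and Cat; 5.01% of genes).

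**Figure D2:**
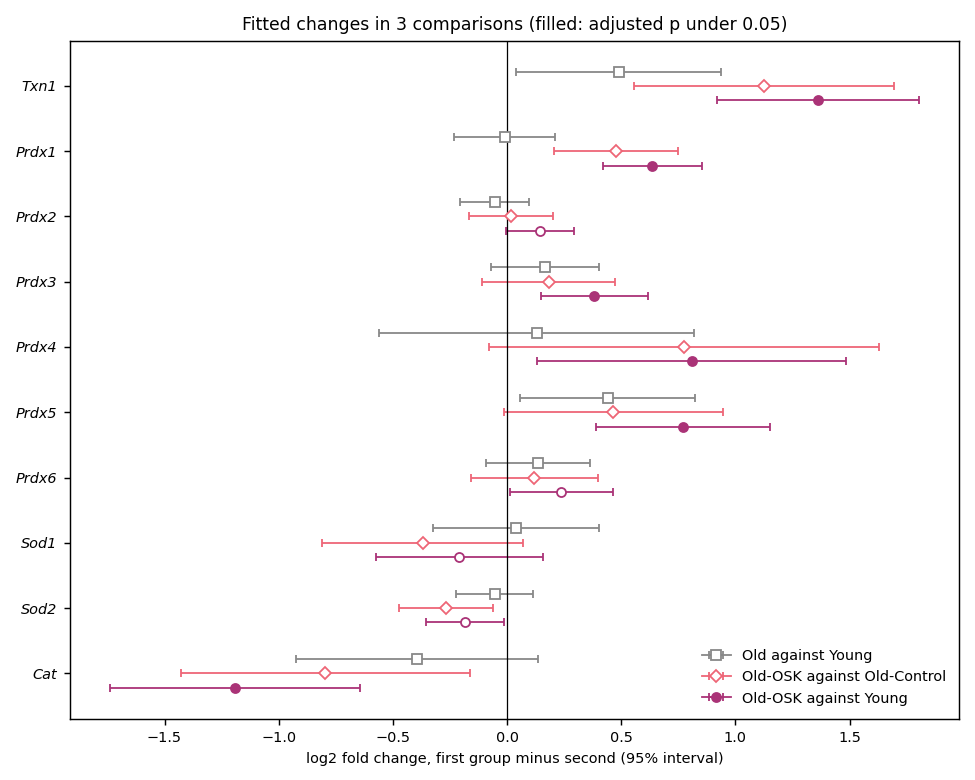
Fitted log2 fold change (x axis) with its 95% interval for each gene in 3 comparisons; filled symbols have an adjusted p under 0.05. Only Old-OSK against Young has filled symbols: Txn1, Prdx1, Prdx3, Prdx4 and Prdx5 to the right of 0 and Cat to the left.

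Old-OSK against Young called 5 members higher (Txn1, Prdx1, Prdx3, Prdx4 and Prdx5), where 25.1% of all genes were called higher, and 1 lower (Cat), where 21.4% were. Prdx2, Prdx6, Sod1 and Sod2 did not pass. In Txn1, Prdx1, Prdx4 and Prdx5 every Old-OSK library exceeded every Young one, as in 12.6% of genes, and Cat was the 1 member with every Old-OSK library below every Young one, as in 15.6% of genes. The median of the members was 0.31 and that of all genes 0.06. With the RPE marker score as a covariate 2 members were called higher (Prdx1 and Sod1, beside 3.68% of genes). The RPE marker sums of Old-OSK (15500 to 30500 CPM) and Young (40700 to 67400 CPM) did not overlap. That fit thus may extrapolate beyond marker levels that both groups share. This comparison differs in age and in vector at once, and their parts cannot be told apart; it shares its Old-OSK libraries with the comparison against Old-Control. In Old-Control against Old 0 members and 0% of genes were called by edgeR, and DESeq2 called 0 members. An unadjusted p under 0.05 was reached by 1 member, Prdx2, against 3.74% of genes, and Prdx2 was also the 1 member with all Old-Control libraries above all Old ones, as in 2.25% of genes.

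**Figure D3:**
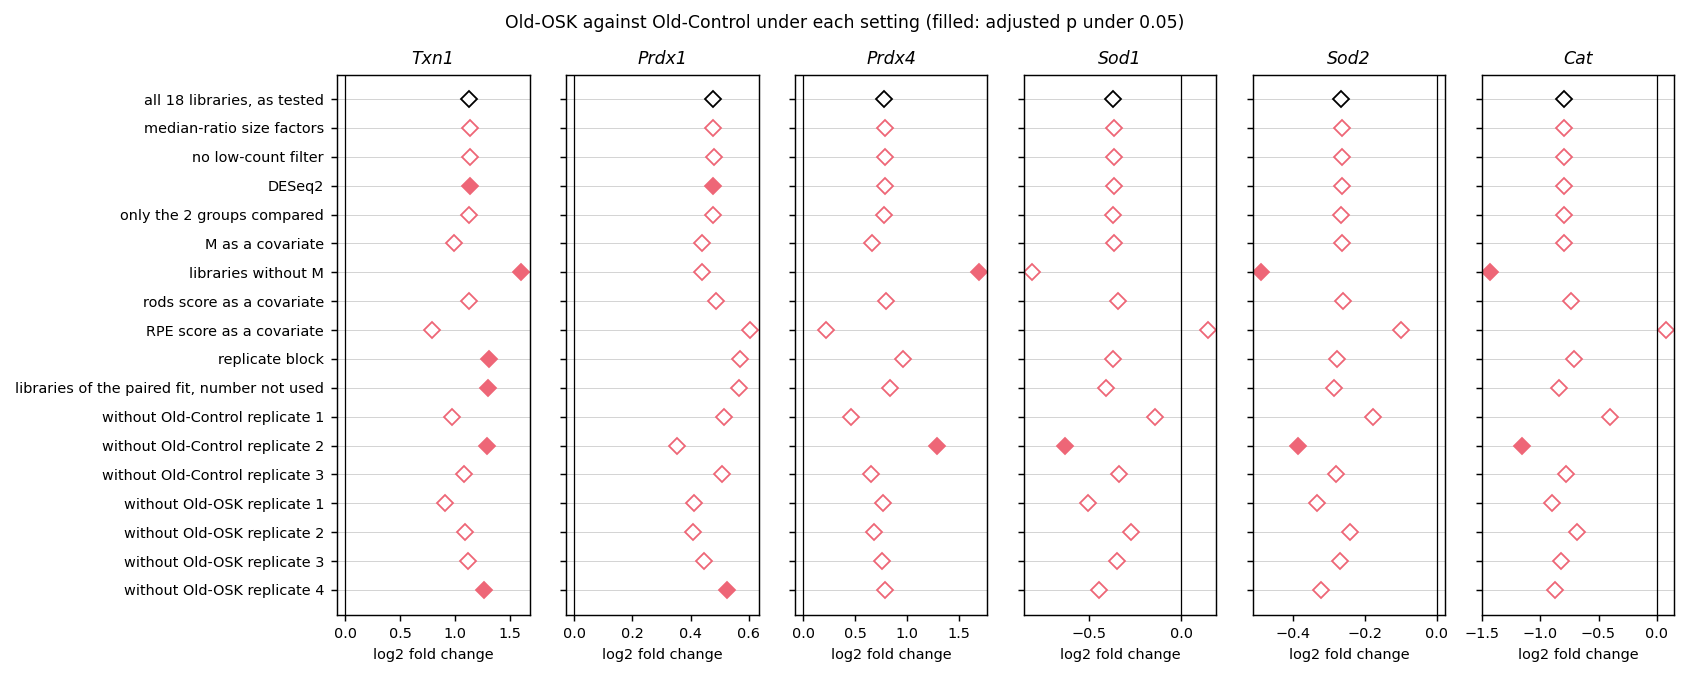
Log2 fold change of Old-OSK against Old-Control (x axis, one panel per gene) under each setting or with 1 library left out (y axis); filled symbols have an adjusted p under 0.05. Leaving out Old-Control replicate 2 moves Txn1, Prdx4, Sod1, Sod2 and Cat away from 0, and the RPE marker score as a covariate moves Cat to 0.07.

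The members fell into groups that varied together within the study groups. Correlations are of log2 CPM deviations from group means over the 18 libraries, which share depth and scaling between genes, and no p is given. Of 45 pairs, 8 had r over 0.7 and 3 under -0.7. Cat and Sod1 had r = 0.895 (Spearman 0.831), Cat and Sod2 0.83 (0.769), and Sod1 and Sod2 0.767 (0.701). Without Old-Control replicates 1 and 2, the libraries farthest from the median of the dismutase in each pair, these were 0.793, 0.684 and 0.579. Txn1 and Prdx3 had r = 0.921 (Spearman 0.909), and 0.868 without the 2 libraries farthest from the median of Txn1. Txn1 and Prdx5 had 0.8, which was 0.637 without those 2 libraries (Old replicate 4 and Old-OSK replicate 4). Prdx4 ran against Cat (-0.791) and Sod1 (-0.729), and Prdx3 against Cat (-0.704). Txn1 and Prdx1, the pair whose Old-OSK libraries lay apart from Old-Control, had r = 0.0597 within groups.

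**Figure D4:**
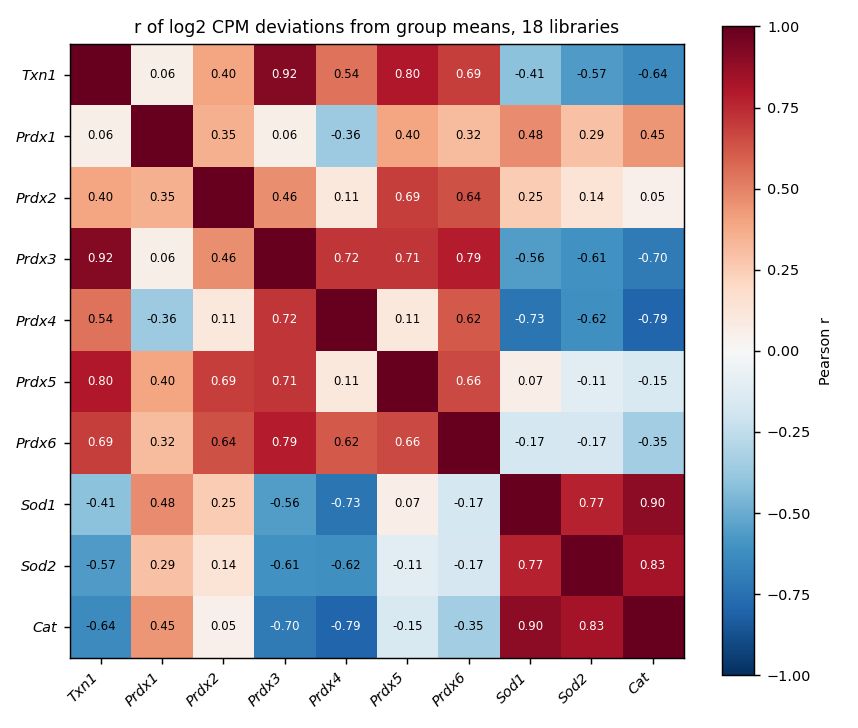
Pearson r between each pair of the 10 genes (both axes), from log2 CPM deviations from group means in 18 libraries; red is positive and blue negative. Cat, Sod1 and Sod2 form a positive block (0.767 to 0.895), and Txn1 with Prdx3 has 0.921.

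The dismutases and catalase also followed the RPE markers. Cat had r = 0.981 with the summed RPE markers over 18 libraries and 0.973 for deviations within groups (Spearman 0.909), with 0.945 without Old-Control replicate 2 and Old replicate 4. For Sod1 the value within groups was 0.918 and for Sod2 0.794. Prdx4 (-0.723), Prdx3 (-0.629) and Txn1 (-0.576) ran the other way, and Txn1 had -0.391 without the same 2 libraries. Prdx1 had 0.405, Prdx2 0.194, Prdx5 -0.0706 and Prdx6 -0.257. Of the other 8 marker lists, endothelium ran against Txn1 (-0.67), Prdx6 (-0.658) and Prdx5 (-0.651), and stroma against Txn1 (-0.609). Cat also ran with stroma (0.6) and red blood cells (0.497). In all, 90 combinations of a member with a marker list were computed. Old-OSK had the lowest RPE marker sums, so this quantity moves with the falls and rises above. The RPE marker score is another quantity, in which each marker weighs equally, including Best1 at 0.4 to 2.57 CPM. With that score in edgeR's fit Cat differed by -0.09 (adjusted p = 0.674) between Old-OSK and Young, and by 0.07 from Old-Control. Since the marker sums of Old-OSK and Young did not overlap, the fit cannot fully separate the score from the group there.

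**Figure D5:**
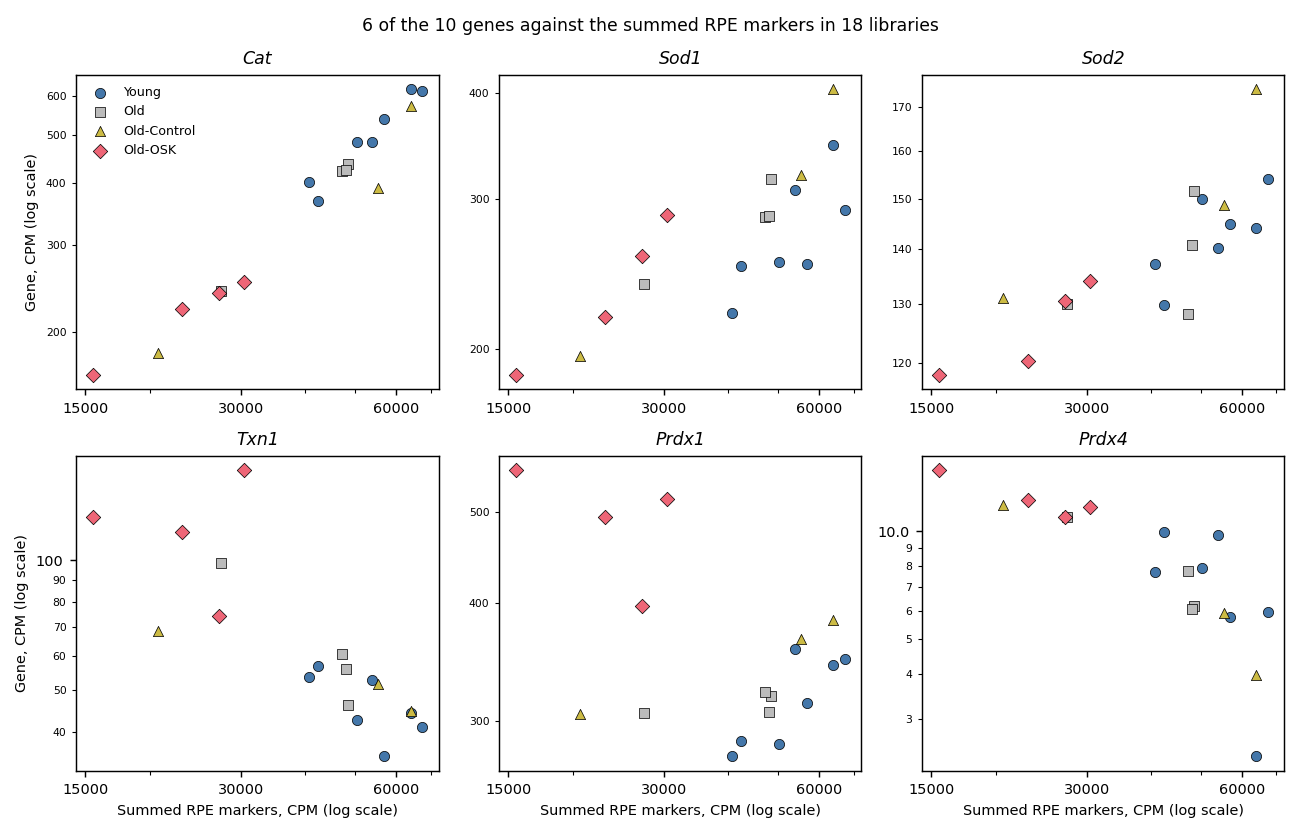
CPM of 6 genes (y axes, log scale) against the summed CPM of 10 RPE markers (x axes, log scale), one point per library and a symbol per group. Cat is higher where the marker sum is higher in every group, while the Old-OSK libraries of Prdx1 stand above the others at any marker level.

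Partner genes of these systems (thioredoxin reductases, glutaredoxins, sestrins, methionine sulfoxide reductases and others; 25 of 28 tested) gave 0 higher and 1 lower in Old against Young. That 1 was Msrb3, a methionine sulfoxide reductase, at 43.2 ± 1.43 CPM in Young and 29.4 ± 3.99 in Old (-0.55, adjusted p = 0.016; 0.0765 without Old replicate 4). Txnip, which binds and inhibits thioredoxin, had 1.03 (adjusted p = 0.0589), and Glrx 0.72 (adjusted p = 0.0591). In Old-OSK against Old-Control 0 of 25 passed. The lowest p there belonged to Sesn3, a sestrin, at 301 ± 31.3 CPM against 499 ± 145 (-0.73, adjusted p = 0.0722), Msrb3 (-0.48, adjusted p = 0.0884) and P4hb, protein disulfide isomerase (0.42, adjusted p = 0.0901). The list's median was -0.03, as for all genes. In DESeq2 all 3 passed (adjusted p = 0.0222 for Sesn3, 0.0499 for Msrb3 and 0.0377 for P4hb). Without Old-Control replicate 2 Sesn3 (-0.98, adjusted p = 0.00552) and Msrb3 (-0.71, adjusted p = 0.00469) passed, and with the RPE marker score as a covariate neither did (-0.28, adjusted p = 0.446, and -0.18, adjusted p = 0.564). Without Old-OSK replicate 4 all 3 passed (adjusted p = 0.0415, 0.0436 and 0.0226). Old-OSK against Young gave 8 higher and 3 lower of 25, where 25.1% of all genes were called higher and 21.4% lower, with a median of -0.08 against 0.06 for all genes. Glrx3, a cytosolic glutaredoxin, rose by 0.88 (adjusted p = 2.08e-04), while Sesn3 (-1.18, adjusted p = 1.25e-04) and Msrb3 (-0.93, adjusted p = 8.29e-05) fell. Of these 3, Glrx3 did not pass with the RPE marker score as a covariate (0.61, adjusted p = 0.0637). Txnrd1, the reductase that recharges Txn1, was at 132 ± 13.1 CPM in Young, 118 ± 4.14 in Old, 117 ± 16.5 in Old-Control and 115 ± 11.4 in Old-OSK; it is named here after its values were seen.

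Peroxisome genes, catalase's organelle, were tested in 26 of 26. In Old against Young 0 were higher and 2 lower, Pex5 (-0.41, adjusted p = 0.0172), the receptor that imports most matrix proteins, and Pex19 (-0.37, adjusted p = 0.0328), a carrier of membrane proteins. Pex5 passed in 10 of 11 fits without 1 library (adjusted p = 0.0707 without Old replicate 4) and in 6 of 10 other settings. Pex19 passed in 4 of 11 such fits (adjusted p up to 0.148, without Old replicate 4) and in 4 of 10 other settings. In Old-OSK against Old-Control 0 passed, 24 of 26 had a negative difference, and the median was -0.21 against -0.03 for all genes. Low p-values belonged to Phyh (-0.34, adjusted p = 0.0888), an enzyme of phytanic acid breakdown, and Pex11a (-0.64, adjusted p = 0.0966). Both passed without Old-Control replicate 2 (-0.46, adjusted p = 0.0208, and -0.84, adjusted p = 0.0236) and without Old-OSK replicate 4 (adjusted p = 0.0402 and 0.0481). Both were at -0.17 (adjusted p = 0.478 and 0.582) with the RPE marker score as a covariate. Old-OSK against Young called 15 lower and 0 higher, beside 21.4% and 25.1% of all genes, with a median of -0.32 against 0.06 for all genes. Pex11a fell by 0.85 (adjusted p = 0.00175) and Pex19 by 0.53 (adjusted p = 7.69e-04). With the RPE marker score as a covariate neither passed: the Pex11a difference was -0.17 (adjusted p = 0.475) and that of Pex19 -0.20 (adjusted p = 0.218).

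Enzymes that make superoxide or peroxide (12 of 15 tested) gave 7 higher and 1 lower in Old against Young, beside 5.4% and 4.16% of all genes. Their median was 0.99 and that of all genes -0.004. Cybb, the catalytic subunit of the phagocyte NADPH oxidase, was at 2.81 ± 0.88 CPM in Young and 12.8 ± 3.15 in Old (2.19, adjusted p = 1.68e-05). Ncf1, a cytosolic subunit of that oxidase, rose as well (1.44, adjusted p = 0.00124). Markers of immune cells (9 of 9 measured) summed to 64.1 to 91.9 CPM in Young, 323 to 764 in Old, 429 to 747 in Old-Control and 591 to 761 in Old-OSK; their part in these values was not tested. In Old-OSK against Old-Control 0 passed, with Cyba at 49.5 ± 4.48 CPM against 32.4 ± 3.72 (0.61, adjusted p = 0.0812), Duox2 at 2.89 (adjusted p = 0.127) and Xdh at 1.28 (adjusted p = 0.134) on the log2 scale. Cyba passed in DESeq2 (0.62, adjusted p = 0.0303). Xdh passed with the replicate block (1.54, adjusted p = 0.0433), and in the same libraries without the number (1.53, adjusted p = 0.0227). Old-OSK against Young gave 7 higher and 1 lower, beside 25.1% and 21.4% of all genes, among them Cybb (2.57, adjusted p = 1.01e-06) and Ncf1 (1.95, adjusted p = 1.39e-05).

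The genes whose levels ran closest to each member, among 10224 tested genes whose mean log2 CPM was 3 or more, are given by Pearson r of log2 CPM over 18 libraries. Txn1 ran with Hspb1, a small heat shock protein, at 0.978 and with Ncaph2 at 0.975. Prdx1 ran with Trappc1 (0.922) and Gamt (0.897), and Prdx2 with Fkbp8 (0.833) and Psmb4 (0.802). For Prdx3 they were Acadm (0.967), a mitochondrial enzyme of fatty acid oxidation, and Sf3b6 (0.95), and for Prdx4 Emb (0.944) and Rbpms (0.932). Prdx5 ran with the ribosomal protein genes Rpl8 (0.964) and Rps15a (0.961), and Prdx6 with Tpm2 (0.85) and Prss22 (0.847). Sod1 had Mt1 (0.961), a metallothionein, and H4c8 (0.953), and Sod2 had Slc25a4 (0.897), the mitochondrial ADP/ATP carrier, and Egln1 (0.897). Cat had Sulf1 and Tmem98, both at 0.992, the closest match of any member. The search left the members out.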

How the data were processed

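PolyA RNA of RPE was extracted with TRIzol, amplified with SMART-Seq v4 and made into Nextera XT libraries, per the labels' protocols. The deposited file is a single matrix of raw gene counts, unnormalized by the authors. The submitters' processing notes name STAR 2.7.1a, featureCounts 1.6.2 and the builds GRCm38 (mm10) and GRCh38 (hg38); annotation, strand setting and treatment of multiply mapped reads are not given in the sources used here. All 18 columns were matched by title, and 0 columns were left unused. Counts were filtered with filterByExpr (minimum count 10, minimum total 15), scaled by TMM and fitted with 4 group means over all 18 libraries in edgeR 4.0.16 (glmQLFit, glmQLFTest; R 4.3.3), with Benjamini-Hochberg adjustment over 15944 genes. A gene was called at an adjusted p under 0.05. The test was checked on simulated data. DESeq2 1.42.0 and the settings of the closing section were alternatives.

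The members and gene lists were chosen with earlier results of these data known. Named genes are all 10 members, the 3 genes of each list with the lowest p in each comparison described, and the 2 genes closest to each member; Old-Control against Old is described for members only. Not every list gene that this rule selects is reported here. Library pairs of a group differed by a chi-square per gene of at least 20.2, so none was merged. Reads carry no molecular identifiers, so counting error is a lower limit. Nothing in the labels says that libraries of a group come from separate animals, so p-values measure the spread between these samples, which may be technical. Titles number the libraries within groups, but library names carry other numbers. For Old-OSK and Old-Control, deviations of same-numbered libraries from their group means gave r = 0.103, 0.421 and 0.339 across genes for numbers 1, 2 and 3. Since each was above 0.1, those libraries were taken as paired for the replicate block. This pairing comes from the data, not from the labels. Equally numbered libraries of groups not taken as paired reached 0.359 (Old-Control and Old, number 3) and 0.352 (Old-OSK and Young, number 4). Values of this size thus do not establish a pairing. Gene positions and exon lengths are from GENCODE M21 (GRCm38), promoters from RefSeq (GRCm38.p6).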

Additional observations from a re-analysis of the deposited data

Results flagged for a closer look

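Among 30 groups of 4 to 7 libraries (10 members in 3 groups), 2 held a library whose gap to its nearest neighbour took an unusually large share of the group's range, by Dixon's criterion at the 95% level. Chance alone marks some 5% of such groups. Prdx2 in Old-OSK replicate 1 was at 325.6 CPM, with the nearest library at 279.7 and the far end at 271.2, a gap of 0.844 of the range. Without this library the Old-OSK against Old-Control difference of Prdx2 was -0.08 (edgeR adjusted p = 0.645).

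Cat in Old replicate 4 was at 242 CPM, with the nearest library at 422 and the far end at 435.8, a gap of 0.929 of the range. The same library had the lowest RPE marker sum of its group (27500 CPM). Without it the Old against Young difference of Cat was -0.23 (edgeR adjusted p = 0.687).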

How the results depend on the processing

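In Old-OSK against Old-Control, 0 members were called higher; there were 2 with DESeq2, 2 among libraries without an M in the name, 1 with the replicate block, 1 in the paired libraries without the number, and 0 to 2 with 1 library left out (2 without Old-Control replicate 2 or Old-OSK replicate 4). The 0 called lower became 2 among libraries without M and 0 to 3 with 1 library left out. In Old-OSK against Young the 5 higher became 3 in the libraries of the paired fit without the number, 2 with the RPE score as a covariate (added after seeing the data) and 3 to 6 with 1 library left out (3 without Old-OSK replicate 1); the 1 lower became 2 when only those 2 groups were fitted and 0 with the RPE score. The other 2 comparisons called 0 members under every setting run. Of these, Old-Control against Old called 0 of all genes under each setting too. The counts of all genes below vary widely between settings, and member counts are to be read beside them. The replicate block changed the call of no other member in Old-OSK against Old-Control.

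The sign turned in the following cases (in Old-Control against Old, Txn1 and Prdx2 were the members examined). With that score Old-OSK against Old-Control gave 0.074 for Cat, 0.14 for Sod1 and -0.010 for Prdx3, Old-OSK against Young gave -0.20 for Prdx4, 0.48 for Sod1 and 0.052 for Sod2, and Old against Young gave 0.042 for Prdx1, -0.18 for Prdx4 and 0.016 for Sod2. In Old against Young, Prdx1 (-0.01) became 0.0054 with only the 2 groups, 0.024 without M, 0.045 with the rods score, 0.028 with the replicate block and 0.022 in those libraries without the number. Prdx4 (0.13) became -0.10, -4.89e-04, -0.12 and -0.11 under the last 4 of these. Txn1 in Old-Control against Old (-0.25) became 0.0071 in the paired libraries without the number. With 1 library left out, Old against Young ran from -0.041 to 0.022 for Prdx1, -0.089 to 0.23 for Prdx4 and -0.022 to 0.11 for Sod1, Prdx2 in Old-OSK against Old-Control from -0.078 to 0.069, and Txn1 in Old-Control against Old from -0.43 to 0.016. The cause was not tested.

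Counts of all genes called (higher and lower) moved more. Old against Young had 861 and 663; DESeq2 gave 1495 higher, no filter 396 lower, M as a covariate 315 and 285, no M 204 and 244, the rods score 275 and 201, the RPE score 483 higher, the replicate block 0 and 1, its libraries without the number 90 and 81, and leaving out 1 library 233 to 1422 higher and from 160 lower (without Old replicate 4). Old-OSK against Old-Control had 65 and 51; median-ratio size factors gave 29 lower, no filter 22 lower, DESeq2 984 and 619, only 2 groups 2 and 0, M as a covariate 41 and 17, no M 611 and 798, the RPE score 14 and 2, the replicate block 396 and 82, its libraries without the number 870 and 86, and leaving out 1 library 12 to 1019 and 1 to 1880. Old-OSK against Young had 3996 and 3405, with 2406 and 2015 under the rods score and 587 and 705 under the RPE score. Depth limits Prdx4 most, with counts of 42 to 367. Equally numbered libraries of the other 3 comparisons did not all deviate together, so their replicate block rests on a number alone.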
